A study of Homo sapiens with 6 samples.

Results

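Complement is a cascade of plasma proteins that marks and lyses foreign cells, and the hepatocyte makes most of its components. The 9 genes described here encode complement components and regulators: the proteases C1R, C1S, C2 and CFB, the central components C3 and C5, the pore protein C9, and the regulators CFI and C4BPA. They were chosen by name, with earlier results of these data known, and each symbol had 1 row among the 60605 rows of the deposited table. The study asked how pectolinarigenin, a plant flavone, alters gene expression in lipid-loaded Huh-7, an established human liver cancer line with many hepatocyte functions.

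Both groups were Huh-7 cells made lipid-rich with 100 µM oleic acid for 24 h, replated and starved. The pectolinarigenin group then received the compound at 100 µM for 24 h, and the control group received DMSO with 0 µM of it. Each group had 3 libraries of total RNA, numbered 1 to 3 in the labels, and no label says whether they were separate cultures, so the p-values reflect only library-to-library spread, which may be technical. The data come from 1 transformed cell line, and no untreated cells without oleic acid are compared here. Total counts were 16054283 to 20311261 per pectolinarigenin library and 15140022 to 18652800 per control library. The 7 hepatocyte markers fixed for checking the label (ALB, APOA1, APOB, TTR, SERPINA1, TF and AFP) summed to 8824 to 9599 FPKM in pectolinarigenin libraries and 12168 to 12359 FPKM in control libraries. Among markers of other liver cells, CD163, KDR, DCN and LUM were at 0 in all 6 libraries. Those with a mean of at least 1 FPKM were LYZ, at 39.3 to 76.5 FPKM, and PECAM1, at 1.15 to 2.61 FPKM.

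In the cascade, C1r and C1s are the paired proteases of the first complex of the classical pathway, and C1s cleaves C4 and C2. C2 supplies the protease part of the enzyme that cleaves C3 in the classical pathway, and factor B does so in the alternative pathway. Cleaved C3 tags surfaces and opens the way to cleavage of C5, after which C6, C7, C8 and C9 assemble into a pore. Factor I inactivates C3b and C4b with the help of cofactors, of which the C4b-binding protein, whose alpha chain C4BPA encodes, is one.

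Under pectolinarigenin C3 rose by 21.0%, while C5 fell by 24.5% and C4BPA fell by 51.4%, with CFB and CFI between them, and C9, almost absent from control libraries, was detected in every pectolinarigenin library. These changes came from the quasi-likelihood test of edgeR on the deposited counts, with Benjamini-Hochberg adjustment over all 12829 genes that had a mean of at least 1 FPKM (counts scaled to gene length and library depth) and a threshold of 0.05. In that test 5 of the 9 members were tested, 1 was called higher and 4 were called lower, where 50.6% of all tested genes were called, 25.3% as higher and 25.3% as lower. The other 4 members, C1R, C1S, C2 and C9, lay under the FPKM minimum and were tested among the 16446 genes that the filterByExpr function of edgeR keeps. With that filter 2 of the 9 members were called higher, 6 lower, and C2 did not pass, where 46.4% of all genes were called, 23.6% as higher and 22.7% as lower. C9, 1 of the 2 called higher, passed the filter only through its pectolinarigenin libraries. The median log2 fold change of the 5 members tested at the FPKM minimum was -0.76, against 0.00071 over all tested genes. In these bulk libraries fewer cells of a type and less RNA per cell cannot be told apart.

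**Figure D1:**
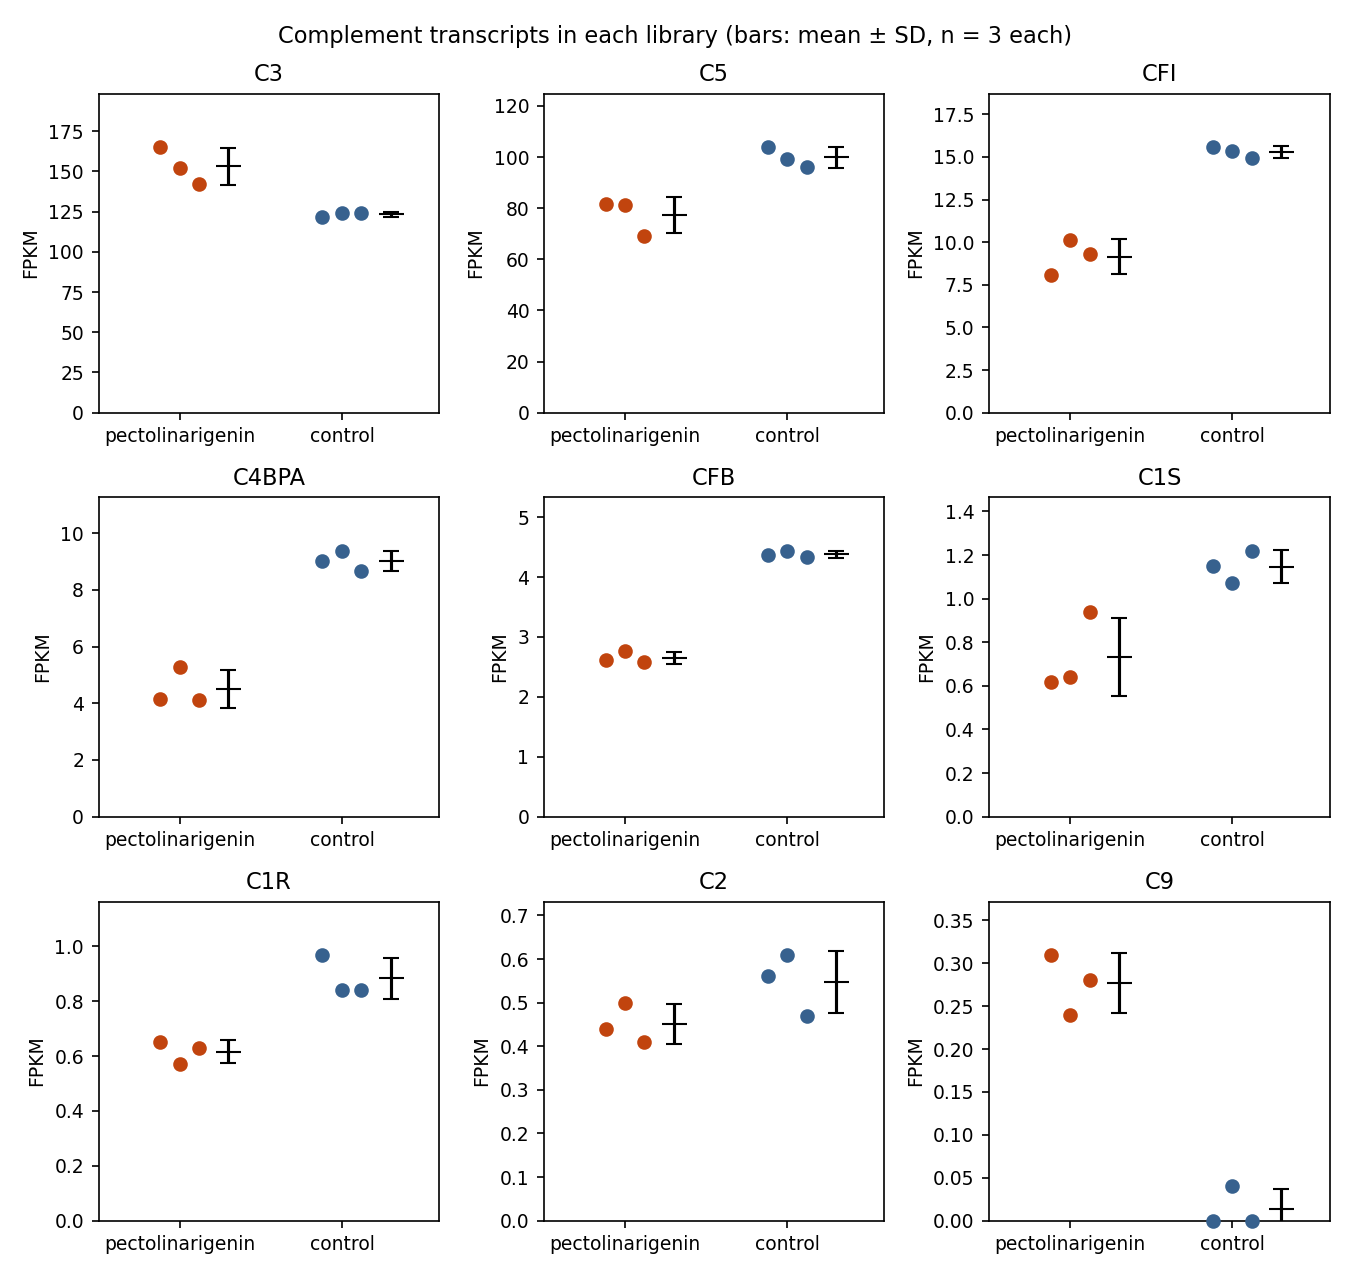
FPKM of the 9 complement members in each of the 3 pectolinarigenin and 3 control libraries (points), with the mean and SD of each group beside them and every vertical axis starting at 0. C3 and C9 lie higher in all pectolinarigenin libraries, the groups overlap for C2, and the other 6 members lie lower in all pectolinarigenin libraries. Groups did not overlap in 59.2% of all genes at a mean of at least 1 FPKM, a share that does not cover C1R, C1S, C2 and C9.

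Upstream sequence was examined for the members that matched the RefSeq promoter table (build GRCh38.p14), which were 7 of the 9 with 10 promoter entries among 35116 in all. The 250 bases before each start site were searched on both strands for 6 short motifs of factors that act on liver and inflammatory genes: HNF4 (CAAAGTCCA), C/EBP (TTGCNNAA), STAT (TTCNNNGAA), NF-kB (GGNNTTTCC), AP-1 (TGANTCA) and IRF (GAAANNGAA). These letters occur in 0.325%, 9.05%, 6.57%, 5.48%, 6.57% and 6.88% of all 35116 windows, in the order given. The windows of C4BPA (chr1:207103983-207104232, plus strand) and C5 (chr9:121050276-121050525, minus strand) are shown 5′ to 3′ because both transcripts fell and both windows lie at the annotated gene start. They are in lower case throughout because they hold none of the 6 motifs, which says only that these letters are not in these windows.

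C4BPA: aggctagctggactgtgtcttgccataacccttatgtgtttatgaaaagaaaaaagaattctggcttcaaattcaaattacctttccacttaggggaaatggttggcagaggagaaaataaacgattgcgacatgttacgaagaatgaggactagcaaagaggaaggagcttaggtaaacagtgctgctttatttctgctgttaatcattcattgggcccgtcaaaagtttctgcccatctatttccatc
C5: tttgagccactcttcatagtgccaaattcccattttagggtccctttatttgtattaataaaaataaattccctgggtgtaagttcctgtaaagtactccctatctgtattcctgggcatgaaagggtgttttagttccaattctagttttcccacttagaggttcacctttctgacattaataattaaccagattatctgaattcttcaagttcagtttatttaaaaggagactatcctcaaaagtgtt

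The start site is 29 bases from the GENCODE 29 gene start for C4BPA and 1 base from it for C5. The CFB window, which starts inside the gene as GENCODE 29 annotates it, holds an IRF match on the other strand from 139 bases and a STAT match from 92 bases before the start site, and these do not overlap. C1R has 2 promoter entries, the first with a C/EBP match and the second with a C/EBP and a STAT match. No motif occurred in the windows of CFI, C9 or C2, or in the second C5 entry. The C9 start site lies inside the annotated gene, 60373 bases from the GENCODE 29 gene start. The distance is 24589 bases for the second C5 entry, 3214 for the C2 entry further from the gene start and 714 for the second C1R entry. A match is a description of the letters and not a measured site.

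C3 (ENSG00000125730, chromosome 19, 6677704 to 6730562, GRCh38) encodes the component on which all activation routes meet. It had 165.4, 152.1 and 142.2 FPKM in pectolinarigenin libraries 1 to 3 and 121.7, 123.9 and 124.2 FPKM in control libraries 1 to 3. The groups did not overlap, and the pectolinarigenin libraries spread wider, with a coefficient of variation of 7.61% against 1.12% in control libraries, where counting error alone gives 0.671% and 0.748%. The log2 fold change was 0.28 (SE 0.060, adjusted p = 0.00136), with 66535 counts over the pectolinarigenin libraries and 53567 over the control libraries. Its log2 fold change lay at the 78.1 percentile of all tested genes, and its mean level at the 98.5 percentile.

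C5 (ENSG00000106804, chromosome 9, 120952335 to 121050276) encodes the component whose cleavage releases the inflammatory peptide C5a and begins pore assembly. It had 81.8, 81.2 and 69.3 FPKM in pectolinarigenin libraries, against 104.1, 99.3 and 96.2 FPKM in control libraries. All pectolinarigenin values were lower than all control values, and library 3 was the lowest of its group in both. The log2 fold change was -0.41 (SE 0.065, adjusted p = 0.000118).

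CFI (ENSG00000205403, chromosome 4, 109740694 to 109802179) encodes the protease that inactivates C3b and C4b. Its level was 8.05, 10.1 and 9.28 FPKM in pectolinarigenin libraries and 15.6, 15.4 and 14.9 FPKM in control libraries. The highest pectolinarigenin value was well under the lowest control value, and the log2 fold change was -0.78 (SE 0.075, adjusted p = 1.07e-06). In GENCODE 29, 32.0% of its exon bases are shared on the same strand with AC126283.2, which had 0 counts in all libraries.

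C4BPA (ENSG00000123838, chromosome 1, 207104262 to 207144972) had the largest fall of the 5 tested members. Its level was 4.14, 5.29 and 4.11 FPKM in pectolinarigenin libraries, against 9.0, 9.38 and 8.66 FPKM in control libraries. Library 2 was the highest of its group in both, and the groups did not overlap. The log2 fold change was -1.04 (SE 0.10, adjusted p = 1.55e-06), which lay at the 1.92 percentile of all tested genes.

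CFB (ENSG00000243649, chromosome 6, 31945650 to 31952084), the protease of the alternative pathway, had 2.61, 2.76 and 2.58 FPKM in pectolinarigenin libraries and 4.36, 4.44 and 4.33 FPKM in control libraries. The values within each group were close, with coefficients of variation of 3.64% and 1.30%, below the 6.75% and 5.26% that counting error gives. The log2 fold change was -0.76 (SE 0.087, adjusted p = 5.13e-06). The read-through gene AL645922.1 shares 45.0% of the CFB exon bases and 32.9% of the C2 exon bases on the same strand and had 0 counts in all libraries. How the counting assigned reads in shared exons is not given in the sources used here, so the CFB and C2 levels carry that uncertainty.

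**Figure D2:**
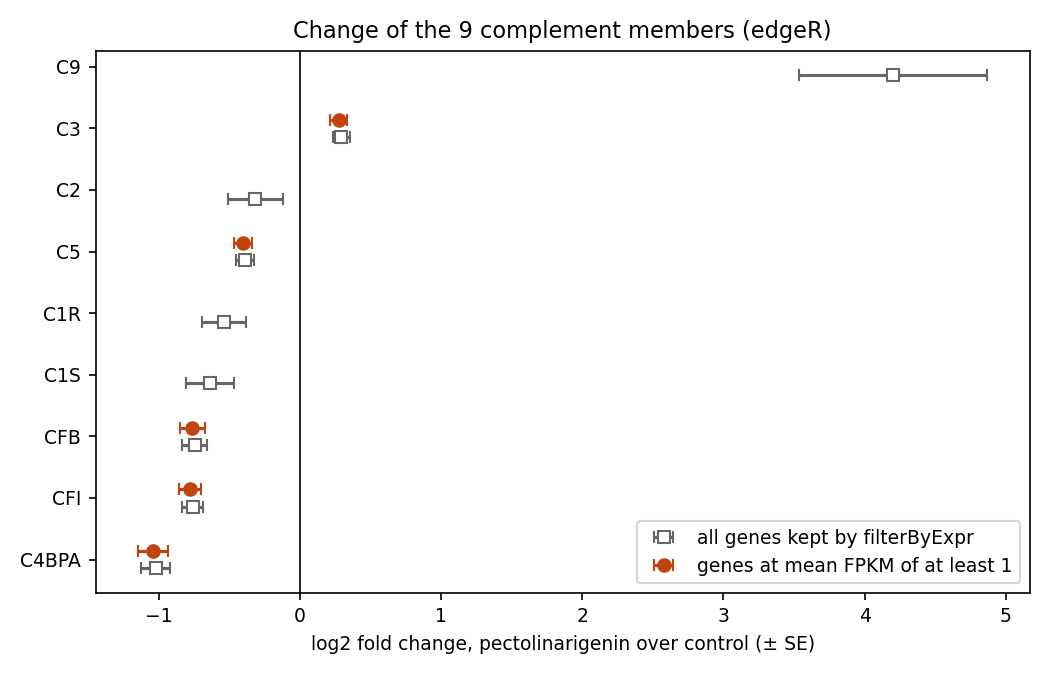
Log2 fold change with SE of each member, pectolinarigenin over control, in 2 edgeR fits: genes at a mean of at least 1 FPKM (filled circles) and genes kept by filterByExpr (open squares). C3 and C9 lie right of 0 and the other members left of it, and C4BPA has the largest fall.

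The members under the FPKM minimum rest on fewer counts. C1S (ENSG00000182326, chromosome 12, 6988259 to 7071032) had 64, 67 and 124 counts in pectolinarigenin libraries and 138, 129 and 119 in control libraries, or 0.62, 0.64 and 0.94 FPKM against 1.15, 1.07 and 1.22 FPKM. Per count total the groups did not overlap, and pectolinarigenin library 3 stood between the other two of its group and the controls. The log2 fold change with filterByExpr was -0.64 (SE 0.17, adjusted p = 0.00497), and -0.90 without pectolinarigenin library 3 (adjusted p = 3.26e-05). C1R (ENSG00000159403, chromosome 12, 7080199 to 7092607), the neighbour of C1S, had 61, 54 and 74 counts in pectolinarigenin libraries and 105, 91 and 74 in control libraries. Its FPKM were 0.65, 0.57 and 0.63 against 0.97, 0.84 and 0.84, without overlap. The log2 fold change was -0.54 (SE 0.16, adjusted p = 0.0101), and the call was lost without control library 1 (-0.46, adjusted p = 0.0574). C1RL, which shares 11.4% of the C1R exon bases, also fell, by 0.58 on the log2 scale.

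C2 (ENSG00000166278, chromosome 6, 31897785 to 31945672), the classical counterpart of CFB, had 39, 45 and 46 counts in pectolinarigenin libraries and 58, 63 and 39 in control libraries. The FPKM were 0.44, 0.50 and 0.41 against 0.56, 0.61 and 0.47, and the groups overlapped. Its log2 change came to -0.32 (SE 0.20, adjusted p = 0.205), with a 95% interval of -0.70 to 0.072, so that no difference was detectable at this depth.

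C9 (ENSG00000113600, chromosome 5, 39284262 to 39424868), which polymerises into the lytic pore, was the least abundant member. It had 15, 12 and 17 counts in pectolinarigenin libraries and 0, 2 and 0 in control libraries. Every pectolinarigenin library was above every control library, although the highest level was 0.31 FPKM. Over the groups this was 44 against 2 counts, a ratio of 21.9 per total count with a 95% exact binomial interval of 5.71 to 186.5, which covers counting error only. The filterByExpr fit gave an adjusted p of 7.98e-05. C9 passed that filter only through its pectolinarigenin libraries, so this p-value is not separate support for the rise. With control library 2 left out the remaining control libraries had 0 counts. Set against an assumed 3 counts over those libraries, C9 was 9.40-fold higher in the pectolinarigenin libraries. That value leaves out the counting error of the 44 counts, so it is not a lower limit. The annotated gene shares 119 exon bases with DAB2 on the same strand, which had 7145 counts over the pectolinarigenin libraries and 6526 over the control libraries (log2 fold change 0.094, SE 0.068, adjusted p = 0.271). Where along the gene the C9 reads lie was not tested.

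The order of the 9 levels per length was the same in both groups: C3, C5, CFI, C4BPA, CFB, C1S, C1R, C2 and C9. C1S and C1R overlapped in pectolinarigenin libraries, at 0.62 to 0.94 and 0.57 to 0.65 FPKM, and not in control libraries, at 1.07 to 1.22 and 0.84 to 0.97 FPKM. No other neighbours in that order overlapped within a group. The summed level of the 9 was 249.0 ± 17.6 FPKM in pectolinarigenin libraries and 254.4 ± 3.3 FPKM in control libraries (SD, n = 3 each), and these ranges overlapped. Within that sum C3 held 61.5% ± 1.4 in pectolinarigenin libraries and 48.5% ± 1.1 in control libraries, and C5 held 31.1% ± 0.9 and 39.2% ± 1.1 in the same order of groups (SD, n = 3 each).

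Ratios within a library do not depend on scaling between libraries. The FPKM ratio of C3 to C5, homologous proteins that are cleaved in turn, was 2.02, 1.87 and 2.05 in pectolinarigenin libraries and 1.17, 1.25 and 1.29 in control libraries, without overlap. The log2 ratio differed by 0.68, with an exact 2-sided permutation p = 0.1, the smallest that 3 against 3 libraries allow, and 0.15 adjusted over the 3 pairs compared. For C2 over CFB the ratio was 0.169, 0.181 and 0.159 in pectolinarigenin libraries and 0.128, 0.137 and 0.109 in control libraries, a difference of 0.45 in log2 ratio (exact permutation p = 0.1, adjusted 0.15). Both sets of ratios were higher in all pectolinarigenin libraries. C1R over C1S was 1.05, 0.891 and 0.670 in pectolinarigenin libraries and 0.843, 0.785 and 0.689 in control libraries. These groups overlapped, and the difference of 0.15 had an exact permutation p = 0.5 (adjusted 0.5).

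**Figure D3:**
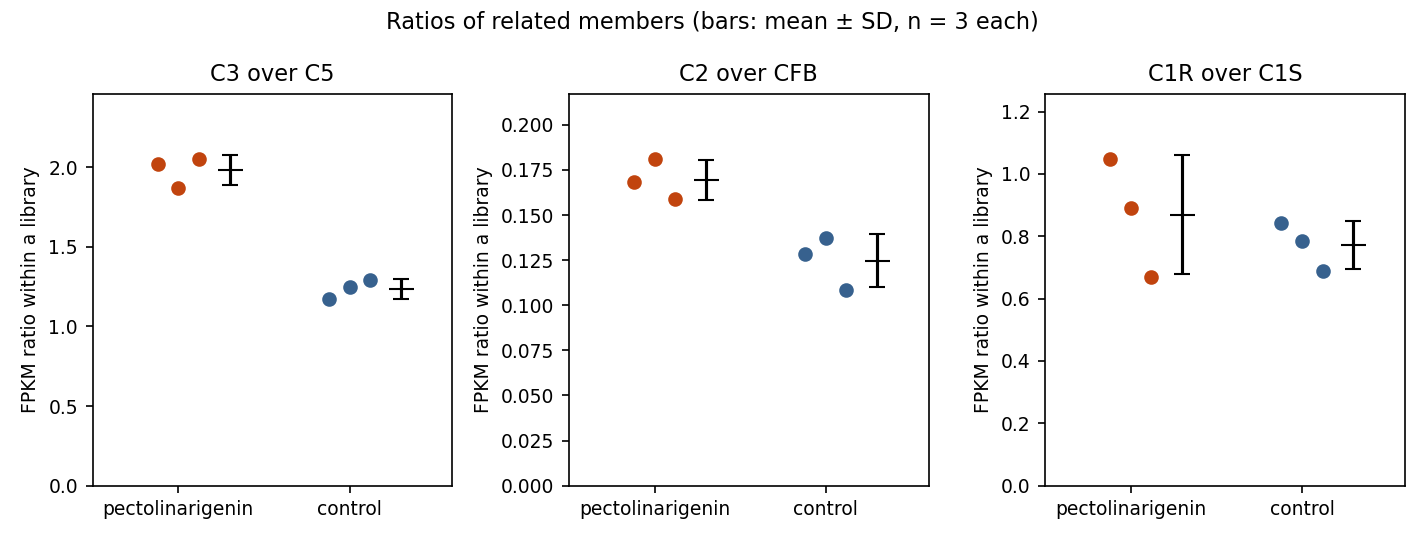
FPKM ratio of C3 to C5, C2 to CFB and C1R to C1S within each library (points), with the mean and SD per group and axes from 0. The C3 to C5 ratio is 1.87 to 2.05 in pectolinarigenin libraries and 1.17 to 1.29 in control libraries, and the C1R to C1S ratios overlap.

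The wider complement list held 55 genes with the members included, of which 23 were tested at the FPKM minimum. Of these 2 were called higher, 15 lower and 6 did not pass, with a median log2 fold change of -0.55. Among the 46 that are not members, 18 were tested, 1 rose (CD59) and 11 fell, with a median of -0.43. A further 10 were kept by filterByExpr alone, of which 8 were lower and 2 did not pass. Some of these 8, C6 among them, passed that filter only through the control libraries, where they were higher. Their calls are therefore not separate support for a fall. Of all genes tested at the FPKM minimum, 25.3% were called higher and 25.3% lower, and groups did not overlap in 59.2%. Of all genes kept by filterByExpr, 23.6% were called higher and 22.7% lower, a set that is not limited to genes under the FPKM minimum.

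Of the 6 terminal pore genes, 3 were tested at the FPKM minimum, the C8 chains C8A, C8B and C8G, and all 3 fell. With filterByExpr all 6 were tested, of which 4 were lower, C9 was higher and C7 did not pass. Among all genes 25.3% were called lower at the FPKM minimum. With filterByExpr 23.6% of all genes were called higher and 22.7% lower. C9 passed that filter only through its pectolinarigenin libraries. C8A had 6.42, 6.53 and 6.47 FPKM in pectolinarigenin libraries and 20.5, 21.2 and 20.6 FPKM in control libraries (log2 fold change -1.72, SE 0.072, adjusted p = 1.88e-10). The C8A values hardly varied within either group. C8B averaged 1.81 ± 0.31 FPKM in pectolinarigenin libraries and 7.59 ± 0.49 FPKM in control libraries (SD, n = 3 each), or -2.10 as log2 fold change (SE 0.12), and C8G changed by -1.15 (SE 0.20). C6, chosen after its values were seen, had 20 against 52 counts over the groups and was called lower with filterByExpr (adjusted p = 0.00686). It passed that filter only through the control libraries. C7, likewise chosen after its values were seen, had 77 against 73 counts and did not pass (log2 fold change 0.046, SE 0.27, adjusted p = 0.903).

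Of the 15 soluble regulators 10 were tested, 9 fell and 0 rose, where 25.3% of all tested genes were called lower and 25.3% higher. The one that did not pass was VTN, vitronectin, at 302.9 ± 17.6 FPKM in pectolinarigenin libraries and 302.0 ± 10.6 FPKM in control libraries (SD, n = 3 each), chosen after its values were seen. Its log2 fold change of -0.033 turned to between 0.0030 and 0.0076 under 4 of the alternatives. SERPING1, the C1 inhibitor, changed by -0.75 on the log2 scale (SE 0.081). C4BPB, the beta chain partner of C4BPA, had 5.16, 8.19 and 5.0 FPKM in pectolinarigenin libraries and 13.8, 14.8 and 12.5 FPKM in control libraries (log2 fold change -1.21, SE 0.14). As for C4BPA, pectolinarigenin library 2 was the highest of its group.

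Of the 5 membrane regulators 3 were tested, of which 1 rose and 2 did not pass, where 25.3% of all tested genes were called higher. CD59, which blocks pore assembly on the cell's own surface, averaged 5.78 ± 0.20 FPKM in pectolinarigenin libraries and 4.65 ± 0.16 FPKM in control libraries (SD, n = 3 each) and rose by 0.28 (SE 0.063, adjusted p = 0.00198) on the log2 scale. CD46 (-0.094, SE 0.057) and CD55 (0.12, SE 0.11) did not pass. The lectin MBL2, the 1 recognition gene tested, did not pass (log2 fold change 0.092, SE 0.11, adjusted p = 0.508), and its value was -0.033 without pectolinarigenin library 3. Of the other proteases MASP1 (-0.038, SE 0.057) and CFD (-0.20, SE 0.13) did not pass; the sign of MASP1 changed under 3 alternatives.

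C4A and C4B, near-identical copies that encode C4, the substrate of C1s, lay under the FPKM minimum and were chosen after their values were seen. C4A averaged 0.320 ± 0.053 FPKM in pectolinarigenin libraries and 0.763 ± 0.103 FPKM in control libraries, and C4B 0.350 ± 0.050 and 0.833 ± 0.021 FPKM in the same order of groups (SD, n = 3 each). Both were called lower with filterByExpr, although reads cannot be divided between them with certainty. In total 18 of the 55 genes were not kept by filterByExpr, and 12 of them had 0 counts in all libraries, including the C1q chains C1QA, C1QB and C1QC. At 3 counts per library the limit that a count of 0 allows is 0.148 to 0.198 CPM (counts scaled to library depth).

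**Figure D4:**
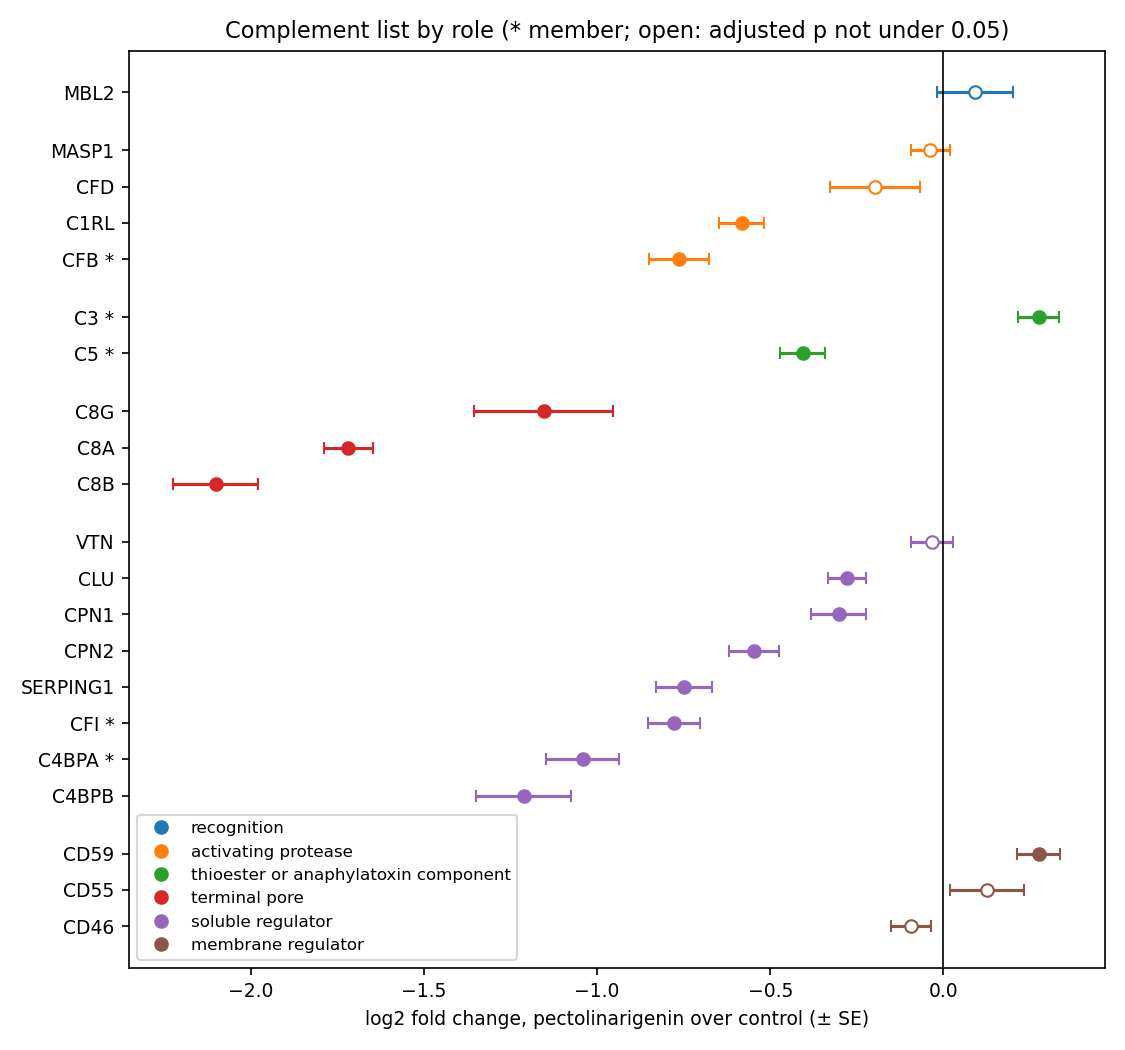
Log2 fold change with SE, pectolinarigenin over control, of tested genes of the complement list that are reported here, grouped by role (colour), with members starred and genes that did not pass shown open. C8A and C8B lie furthest left, and C3 and CD59 are the 2 called to the right of 0.

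Beside these values, 6 of the 7 hepatocyte markers fell (4 of 7 with filterByExpr), with a median log2 fold change of -0.34. Of 17 tested coagulation genes 14 fell and 0 rose (median -0.59), and of 8 tested acute phase genes 7 fell and 0 rose (median -0.63). Over all genes at the FPKM minimum 25.3% were called lower. The difference between these lists and the complement members was not tested. The macrophage markers summed to 52.8 to 76.7 FPKM in pectolinarigenin libraries and 39.4 to 40.0 FPKM in control libraries, nearly all of it LYZ, the 1 of these 5 markers that was tested and called higher, with CD163 at 0 and PTPRC at 2 against 1 counts over the groups. The 5 endothelial markers summed to 1.22 to 1.47 FPKM against 2.38 to 2.67 FPKM, of which PECAM1 was tested and fell, and the 6 fibroblast and stellate markers to 0.19 to 0.32 FPKM against 0.52 to 0.56 FPKM, pectolinarigenin before control. The part of these markers in the complement values was not tested.

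Of 17 genes listed as upstream of hepatic complement expression, all were tested, 4 were called higher and 8 lower, with a median log2 fold change of -0.16. Among all genes at the FPKM minimum 25.3% were called higher and 25.3% lower. Whether the list differs from those shares was not tested. IL1R1, the interleukin 1 receptor, fell by 1.08 (SE 0.079), the bile acid receptor NR1H4 by 0.68 (SE 0.058) and TNFRSF1A, a tumour necrosis factor receptor, by 0.53 (SE 0.066) on the log2 scale. The transcription factors IRF1 (0.53, SE 0.11) and NFKB1 (0.49, SE 0.065) rose, and HNF4A fell by 0.28 (SE 0.058). CEBPB changed by 0.20 (SE 0.076, adjusted p = 0.0393). STAT3, which carries the interleukin 6 signal to acute phase genes, had -0.16 (SE 0.064, adjusted p = 0.0536). The CEBPB adjusted p was 0.204 and 0.117 without control library 1 or 2, and 0.0713 and 0.0799 without pectolinarigenin library 1 or 2. Without pectolinarigenin library 1 the STAT3 adjusted p was 0.00309.

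Profiles over the 6 libraries were compared with those of 12714 other named genes by the root mean square difference of log2 CPM, each profile centred on its mean. The nearest to C3 were ARHGEF40 (0.0224), TSC1 (0.0230) and ADNP2 (0.0230). The nearest to CFI, the member that fell with the smallest p, were PI15 (0.0404), GK5 (0.0596) and TIMP2 (0.0654). PI15 averaged 0.837 ± 0.065 FPKM in pectolinarigenin libraries and 1.44 ± 0.07 FPKM in control libraries (SD, n = 3 each).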

How the data were processed

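RNA was sequenced from 6 Huh-7 libraries, 3 per group. The authors deposited a whole-number count, not normalized, and an FPKM value per gene and library, per the file headers. Per the submitters' processing notes, cutadapt 1.9.1, HISAT2 2.0.1 and HTSeq 0.6.1 were used with GRCh38. What each tool did, which annotation was counted, whether strand was used and how shared reads were handled is not given in the sources used here.

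Counts were tested with edgeR 4.0.16 in R 4.3.3 (quasi-likelihood, TMM factors, no covariate, 2-sided) over all genes at a mean of at least 1 FPKM, with Benjamini-Hochberg adjustment over all of them. The SE of a log2 fold change was derived from the F statistic. The pipeline was run on simulated data with known changes, and its outcome is not reported here. That simulation used the same spread setting for every gene and both groups. Within-group pairs of libraries differed by more than sampling noise. Chi-square per degree of freedom was 5.32 to 13.6 for pectolinarigenin pairs and 1.60 to 3.13 for control pairs. The pairs that held pectolinarigenin library 3 had the highest values, 10.4 and 13.6. Alternatives were DESeq2 1.42.0, limma 3.58.1 on log2(FPKM + 1) or log2(FPKM + 0.1), other scalings and filters, a replicate block and leaving out each library. Refits of the 4 members under the FPKM minimum without each library were added after seeing the data. Positions and exon overlaps are from GENCODE 29, matched by Ensembl identifier.

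The genes named were all 9 members. In each role of the complement list up to 4 further tested genes with the smallest p were named. Of the upstream list, the called genes with an absolute log2 fold change of at least 0.5 and a few fixed factors were named, and the 3 nearest profiles to the rising and the falling member with the smallest p. The members and lists were chosen with earlier results of these data known. CLU, CPN1 and CPN2 are given in the plot by role and in counts. Some genes of these lists enter the counts but are not reported here by name. Ratios were tested by exact permutation of libraries.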

Additional observations from a re-analysis of the deposited data

How the results depend on the processing

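The calls of C3, C5, CFB, CFI and C4BPA kept their direction and stayed past the threshold in every alternative that tested them, with log2 fold changes of 0.22 to 0.32, -0.45 to -0.34, -0.79 to -0.56, -0.85 to -0.69 and -1.16 to -0.87 in that order. CFB was not tested at a mean of at least 5 FPKM. With filterByExpr and with no expression filter, which test more genes, 2 members were called higher and 25 genes of the complement list were called lower. At a mean of at least 5 FPKM, where fewer genes are tested, 2088 genes were higher and 2010 lower, against 3243 and 3243. With no scaling factors 3727 genes were higher and 2820 lower, in limma 3484 and 2561 with a pseudocount of 0.1 and 3503 and 2590 with 1, so that up to 57.6% of called genes were higher. With no scaling factors the log2 fold change of MASP1 was 0.00025 and that of VTN 0.0043, and in limma that of MASP1 was 3.3e-05 with a pseudocount of 1 and that of VTN 0.0030 with either pseudocount. Leaving out single libraries gave -0.063 to 0.00010 for MASP1, -0.033 to 0.20 for MBL2 and -0.085 to 0.0076 for VTN. CEBPB had adjusted p = 0.0590 in DESeq2 and 0.0628 at a mean of at least 5 FPKM. The cause was not tested for these. Same-numbered libraries had correlated deviations of 0.0096 to 0.037, so the numbers were not taken as pairs, although every library correlated best with its own number. With a replicate block 3249 genes were higher and 3291 lower, the 5 tested members kept their calls, and STAT3 passed (adjusted p = 0.0365). Depth limits C2 and C9, and the FPKM minimum was set on the mean over all libraries.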
